A study of Gallus gallus with 14 samples.

Results

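PiRNA clusters of the chicken lie not only on assembled chromosomes but also on the short unplaced and randomly placed scaffolds of the galGal5 genome. The loci described here were taken from 8 lists of called clusters. A cluster was kept where it lay on a random scaffold (such as chr1_NT_456204v1_random) or on a chrUn scaffold, and chrW and chrZ scaffolds were left out. Clusters sharing 1 bp or more, from whichever library, were joined into a locus. This gave 1930 scaffold loci of 4034 loci in all (47.8%), built from 6669 of 12964 called clusters. Of these, 1429 lay on chrUn scaffolds, which have no chromosome, and 501 lay on scaffolds assigned to a chromosome or linkage group without a position in it. Loci on numbered chromosomes, which served for comparison, numbered 1231.

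The study followed small RNAs through male germline development in the chicken (Gallus gallus), with 2 libraries at each of 4 stages. Blastodermal cells (BC1 and BC2) came from pools of 10 to 15 Leghorn embryos of non-incubated eggs, and their sex was not given. E7PGC1 and E7PGC2 were primordial germ cells of Arbor Acres broilers, taken from gonads at embryonic day 7 and grown in culture. E11G and E14G were whole left male gonads of embryonic days 11 and 14, pooled from 8 to 10 gonads, so somatic cells were present. E11G1 and E14G1 came from Cobb 500 broilers and were sequenced on a MiSeq, and E11G2 and E14G2 came from Leghorns and were sequenced on a Solexa instrument. RNA-seq came from 6 further libraries, 2 each of BC, E11G and E14G, of JA57 broilers. The labels name no mutation or treatment. RNA had been oxidized with periodate before library construction, which favours small RNAs with a 2′-O-methylated 3′ end. The sex of the E7PGC embryos was not given either, whereas the gonads were male. Between E7PGC and each other stage, breed, culture and cell mixture change, sex may do so too, and none can be told apart from stage. BC1, BC2, E11G2 and E14G2 were all Leghorn. From BC to the gonads cell mixture still changes and sex may, and neither can be told apart from stage. E11G and E14G each had a Cobb 500 and a Leghorn library, so breed is balanced between them, while cell mixture may change. Clusters on chromosome W and its scaffolds numbered 192 and 182 in BC, 70 and 66 in E7PGC and 8 to 39 in the gonads. The part of sex in the stage differences was not tested. For the E7PGC libraries no source used here states that they were separate cultures, so their p-values measure only the spread between these 2 samples. Hits in the cluster lists are relative to all reads of a list, so a change shared by all piRNAs does not show in them. In whole gonads, germ cell number and piRNA per germ cell can thus neither be read from hits nor be told apart.

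PiRNAs are small RNAs that PIWI proteins bind in animal germ cells, where they guide the silencing of transposable elements. Most are cut from long precursor transcripts of genomic clusters, and such primary piRNAs usually begin with uridine. In the ping-pong cycle a piRNA guides the cutting of a complementary transcript and the cut product becomes a new piRNA with adenine at base 10. The cluster lists give both features per cluster as the share of hits with thymine at the first base (1T) and with adenine at base 10 (10A). Clusters can be transcribed from 1 strand (mono-directional), from both strands outward from a shared point (bi-directional) or from both strands over the same stretch (dual-directional). In the mouse testis, A-MYB drives the transcription of many piRNA precursors.

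The lists mark matches to MYB and RFX binding motifs inside the called clusters on either strand, and these are the sequences that scaffold loci could be compared by. They are shown because they are the only cluster sequence the lists hold. Capitals mark the core of each motif, CNGTTN for MYB and GTTGC for RFX4_1.
A-MYB form 1: aggCAGTTGg
A-MYB form 2: tggCAGTTGg
A-MYB form 3: agaCAGTTGg
A-MYB form 4: tgaCAGTTGg
Mybl1_1: aaCCGTTA
RFX4_1, most frequent form: GTTGCcatg
The A-MYB motif was marked in 120 scaffold loci (6.22%) and in 80 loci on numbered chromosomes (6.50%). Its forms were used differently in the 2 classes. Form 1 made up 61.2% of the 134 scaffold matches and 40.6% of the 96 numbered matches, whereas form 3 made up 5.22% and 34.4%. The Mybl1_1 motif was marked in 72 scaffold loci (3.73%) and 15 numbered loci (1.22%), or 4.68 and 1.38 matches per Mb. The RFX4_1 motif was less frequent on scaffolds than on numbered chromosomes, with 14.1% of loci against 24.8%. This was not particular to scaffolds, since loci on chromosomes Z and W had 14.4% and 17.2%. The RFX4_2 motif was marked in 22.2% and 25.8%. Copies of a repeat on several scaffolds count separately here, so these shares are a description with no test.

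Scaffold loci were somewhat longer than numbered loci and often began at the start of their scaffold. Their median length was 7408 bp (range 3001 to 73710 bp) against 6468 bp for numbered loci, and together they covered 17.9 Mb. Loci on chromosomes Z and W, with their scaffolds, were longer still, with medians of 8558 and 8925 bp. The 1930 loci sat on 1792 scaffolds, of which 1675 carried 1 locus. The 3 scaffolds with the most loci, chr33_NT_463452v1_random, chr4_NT_459800v1_random and chrUn_NT_464145v1, carried 4 each. In 959 scaffold loci (49.7%) the first base lay within 500 bp of the scaffold's first base, which held for 2 numbered loci (0.162%). The 1231 numbered loci lay on only 28 sequences, so few of them could begin at a sequence start. The assembly thus largely sets this contrast, and nothing about the loci is drawn from it. Whether such loci go on beyond the assembled piece was not tested. Among the assigned loci, 151 were on chromosome 1 scaffolds, 59 on chromosome 8, 57 on chromosome 2, 37 on chromosome 20 and 34 on chromosome 25 scaffolds.

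Scaffold assignment went with stage for some chromosomes. No cluster was called on the chromosome 8 or chromosome 25 scaffolds in BC1 or BC2. The chromosome 25 scaffolds held 3542 and 3462 hits in the E7PGC libraries, 11378 and 14708 in E11G, and 7342 and 7496 in E14G. Hits are the lists' normalized hits, in which a read with several genomic places is divided among them, given in RPM, that is relative to all reads of the list. Chromosome 22 scaffolds showed another pattern, with 129 and 152 hits in BC, 870 and 671 in E7PGC and no called cluster in any of the 4 gonad libraries.

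Called clusters on scaffolds were fewest in BC, with 486 in BC1 and 485 in BC2. E7PGC1 had 1051, E7PGC2 had 1191, E11G1 had 936, E11G2 had 1012, E14G1 had 669 and E14G2 had 839. Numbered chromosomes had between 387 and 574 clusters in every library, a narrower range than that of the scaffolds. Scaffolds held 17.4% and 16.7% of clustered hits in BC1 and BC2, 53.4% and 67.5% in E7PGC, 52.2% and 52.5% in E11G, and 42.1% and 44.6% in E14G. The share of hits differed between stages (exact permutation of the 8 libraries over stages, p = 0.00952, the smallest possible, adjusted p = 0.0333 over 7 values). Its mean was 52.0% in the later libraries and 17.1% in BC. Without any 1 of E11G1, E11G2, E14G1 or E14G2 the adjusted p was 0.0667 to 0.0833 (exact permutation), with differences of 34.9 to 36.9 percentage points. The share of clusters on scaffolds was 36.5% ± 0.471 (SD, n = 2) in BC and 55.3% on average later, which did not pass the same exact permutation test (p = 0.0667, adjusted p = 0.0933). Clusters were also held to the highest density threshold of any list, 13.3 hits per kb. The later minus BC difference in the share of clusters then grew from 18.8 to 33.3 percentage points. The share passed between stages there (exact permutation, adjusted p = 0.0333), which tests all stages and not later libraries against BC. The lists' own thresholds ran from 2.21 hits per kb in BC1 to 13.3 in E14G1. The BC lists also held the fewest distinct sequences, 80774 and 77346, against 255025 to 1608518 in the other lists. The part of this in the differences of BC from later stages was not tested.

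**Figure D1:**
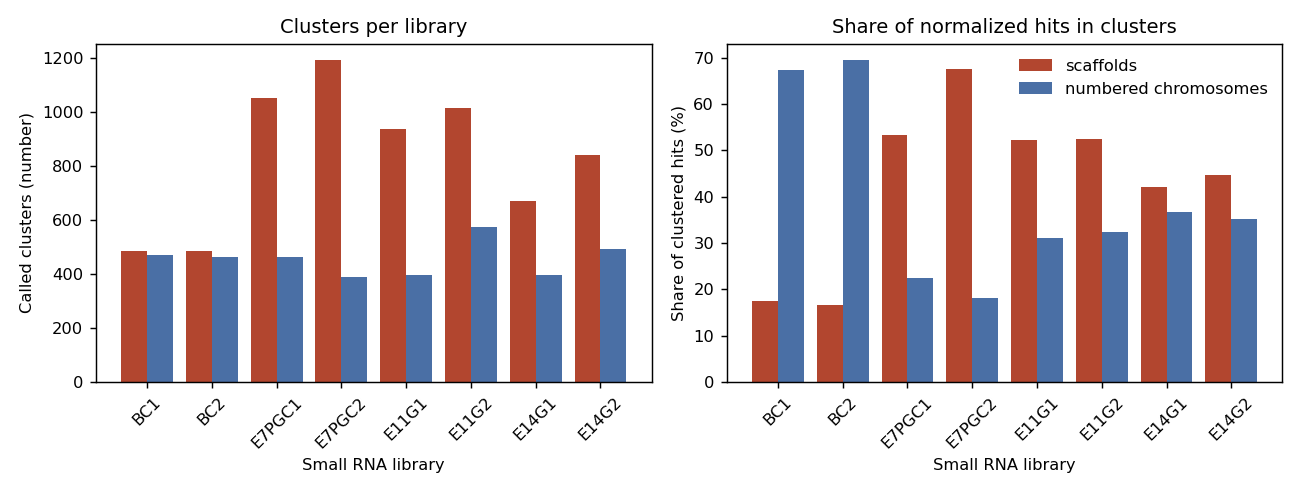
Number of called clusters (left) and share of a library's clustered normalized hits in percent (right) for clusters on scaffolds and on numbered chromosomes in each of the 8 small RNA libraries, 1 bar per library. The BC bars for scaffold hits stand at 17.4% and 16.7%, and the other 6 lie between 42.1% and 67.5%.

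As on numbered chromosomes, the hit-weighted base composition of scaffold clusters varied with stage. Weighted by hits, 1T was 74.1% and 75.1% in BC, 67.3% and 69.8% in E7PGC, 54.5% and 57.9% in E11G, and 55.4% and 56.6% in E14G. The stages did not overlap between BC, E7PGC and the gonads, while E11G and E14G did. The adjusted p of 1T was 0.05 and so not under the threshold of 0.05 (exact permutation, p = 0.0286). The 10A share was 27.3% and 25.3% in BC, 53.8% and 52.8% in E7PGC, 43.8% and 44.5% in E11G, and 45.5% and 44.7% in E14G, and it differed between stages (exact permutation, p = 0.00952, adjusted p = 0.0333). Without any 1 gonad library (E11G1, E11G2, E14G1 or E14G2) its adjusted p was 0.0667. Without the highest cluster of each library, later libraries exceeded BC by 10.7 instead of 21.2 percentage points, and 1T differed by -4.92 instead of -14.4. The median 10A over scaffold clusters, which gives each cluster the same weight, was 53.1% and 49.8% in BC, above the 43.9% to 45.2% of the gonad libraries.

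Set beside numbered chromosomes in the same library, scaffold 1T was higher in 5 of 8 libraries, by a mean of 3.29 percentage points ± 4.63 (SD, n = 8), without passing the test. The exact sign-flip permutation test gave p = 0.117 (two-sided, adjusted p = 0.137 over 7 measures). The difference was largest in BC1 (4.18), BC2 (5.13), E7PGC1 (7.30) and E7PGC2 (11.7), and the gonad libraries lay between -1.24 and 0.114. The sign turned without the highest cluster of each class (-1.34) and as medians over clusters (-0.869), again without passing. For 10A the difference did not pass either (42.2% against 41.2%, SD of the difference 3.35, n = 8, exact permutation, p = 0.445), with 6.26 and 6.23 in E7PGC and -2.14 and -1.81 in BC. When the highest scaffold and numbered clusters were left out, the 10A difference became 4.57 (exact permutation, adjusted p = 0.0109). On chrUn scaffolds alone it was 5.70 (adjusted p = 0.0109), and as medians over clusters it was 2.97 (adjusted p = 0.0109). At the highest density threshold it was -0.0886 (adjusted p = 0.898), so the call depended on which clusters were counted and how they were weighted.

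Scaffold clusters were longer than those on numbered chromosomes in all 8 libraries. The median length difference was 1213 bp ± 734 (SD, n = 8, exact permutation, p = 0.00781, the smallest possible, adjusted p = 0.0137). Over the 4 stage means the smallest p this test allows is 0.125, and that was its value here and for the directionality, main-strand and hits-per-place differences given next. The length difference was 228 and 132 bp in BC and between 1156 and 2218 bp in the other libraries. The median length of scaffold clusters was 5858 and 5600 bp in BC, 7730 and 6935 bp in E7PGC, 8249 and 8298 bp in E11G, and 8264 and 7939 bp in E14G. Length differed between stages (exact permutation, p = 0.019, adjusted p = 0.0444), although not with clusters of at least 100 absolute hits (later minus BC 616 bp instead of 2173 bp, adjusted p = 0.311) nor at the highest density threshold (2816 bp, adjusted p = 0.133). Absolute hits count the genomic places of distinct sequences. Without E7PGC2, or without any 1 of the 4 gonad libraries, its adjusted p was also above 0.05.

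**Figure D2:**
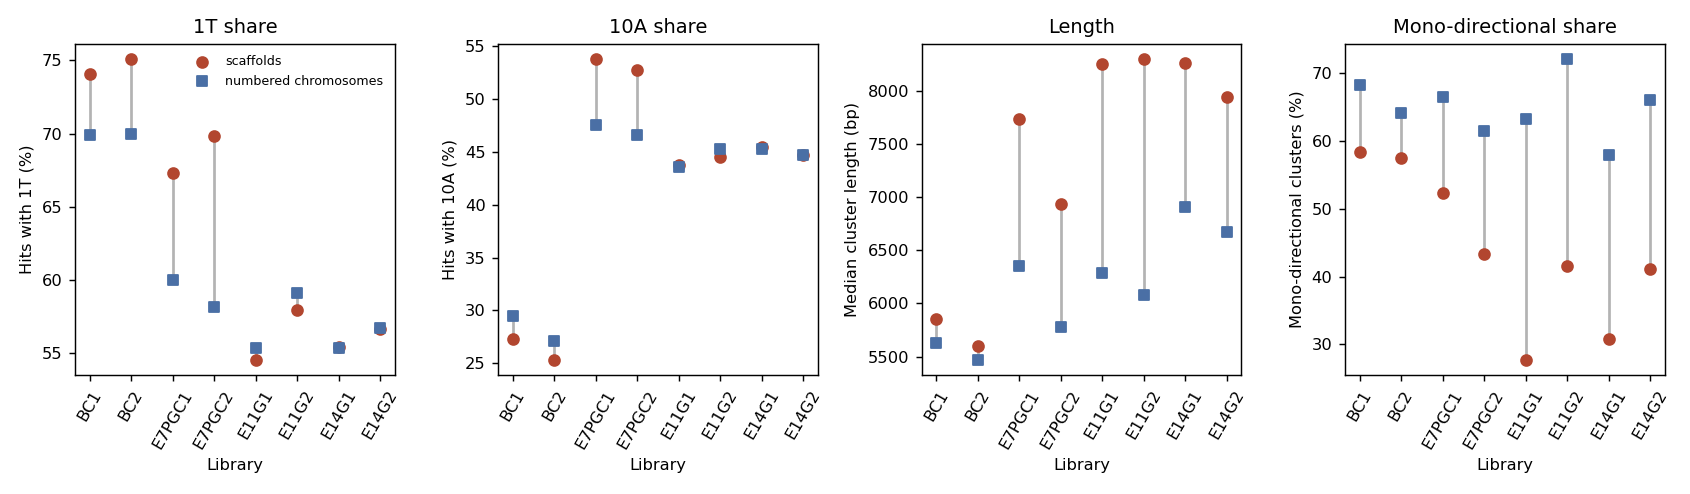
Hit-weighted 1T share, hit-weighted 10A share, median cluster length in bp and share of mono-directional clusters in each of the 8 libraries, for scaffolds (circles) and numbered chromosomes (squares), with a grey line joining the pair of a library. In length the circles lie above the squares in all 8 libraries, and in the mono-directional share below them in all 8, whereas 1T and 10A nearly coincide in the gonads.

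Scaffold clusters were less often mono-directional than those on numbered chromosomes. Mono-directional clusters were 58.4% and 57.5% of scaffold clusters in BC, 52.3% and 43.4% in E7PGC, 27.7% and 41.6% in E11G, and 30.8% and 41.2% in E14G. On numbered chromosomes they were 57.9% to 72.1%. The mean difference was -20.8 percentage points ± 10.3 (n = 8, exact permutation, p = 0.00781, adjusted p = 0.0137, lower in 8 of 8 libraries). Dual-directional clusters made up 27.4% and 26.2% in BC, 38.2% and 39.1% in E7PGC, 61.5% and 50.6% in E11G, and 60.7% and 50.4% in E14G. Numbered chromosomes had 14.7% to 35.3% dual-directional clusters. Within the gonads, both Cobb 500 libraries lay above both Leghorn libraries in the dual-directional share. The Cobb 500 lists held 1394576 and 1658418 reads and the Leghorn lists 7872371 and 8869224. The part of depth, breed and sequencer in this was not tested. The main strand or strands held 93.4% and 93.6% of scaffold hits in BC and 69.8% to 76.3% later, with a mean difference from numbered chromosomes of -5.14 percentage points ± 1.78 (n = 8, exact permutation, p = 0.00781, adjusted p = 0.0137). The mono-directional share of scaffold clusters did not pass the test between stages (exact permutation, p = 0.105, adjusted p = 0.114). On chromosome Z with its scaffolds the main strands held 91.8% and 89.3% in BC and 68.9% to 81.8% later. On W they held 89.1% and 89.4% in BC and 80.0% to 87.3% later. In BC, where numbered chromosomes had 98.4% and 98.3%, a lower share was thus not particular to scaffolds. Mono-directional clusters were 74.1% and 69.2% on Z in BC and 35.4% to 65.0% later. On W they were 59.4% and 51.1%, then 64.1% to 100%.

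**Figure D3:**
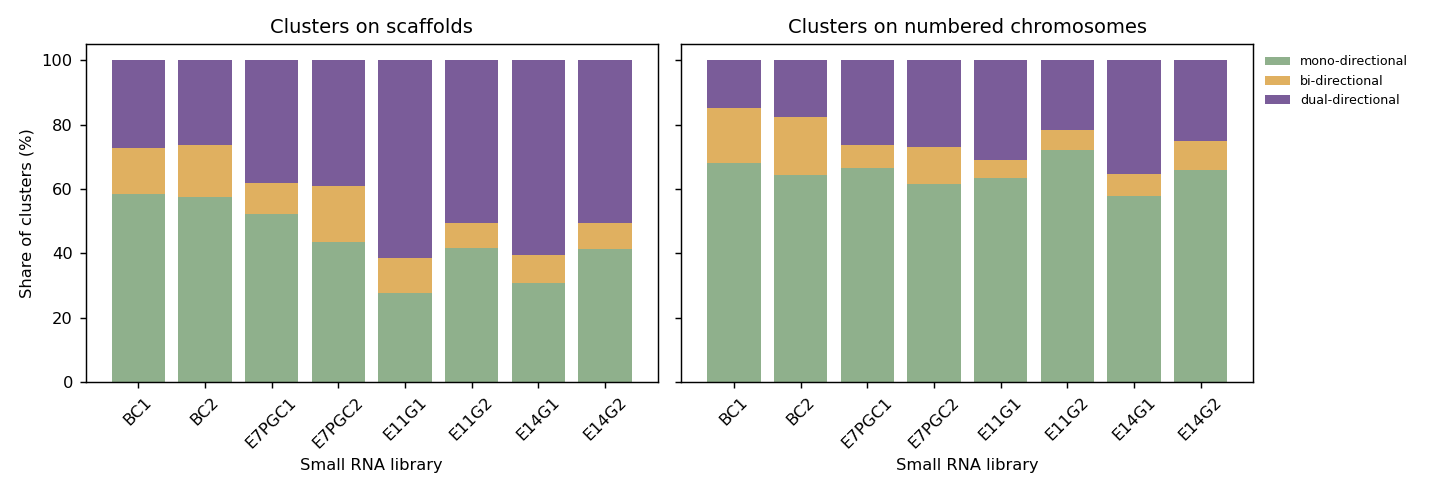
Share of clusters in percent called mono-, bi- or dual-directional in each of the 8 libraries, for scaffolds (left) and numbered chromosomes (right). The dual-directional part of the scaffold bars grows from 27.4% and 26.2% in BC to between 50.4% and 61.5% in the gonads.

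Inside the scaffolds, the composition of the directionality classes varied with stage. In BC, mono-directional scaffold clusters held 81.6% and 81.8% of the scaffold hits, with 1T of 77.7% and 78.4% and 10A of 22.8% and 21.2%. Dual-directional ones held 9.39% and 9.14%, with 1T of 55.5% and 57.8% and 10A of 51.9% and 45.4%. These values are weighted by hits, and as medians over clusters the BC classes were closer, with 10A of 51.7% and 50.3% in mono-directional and 56.9% and 50.6% in dual-directional clusters. In E7PGC the hit-weighted order was the opposite, with 10A of 57.3% and 55.8% in mono-directional and 48.5% and 51.1% in dual-directional clusters. In the gonads the classes were close, with 10A of 42.7% to 45.1% in mono-directional and 44.5% to 46.3% in dual-directional clusters. Dual-directional clusters were longer than mono-directional ones in all 8 libraries, with medians of 6414 to 9951 bp against 5448 to 7709 bp. These values were not tested.

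Each sequence place in a scaffold cluster carried fewer normalized hits than on numbered chromosomes. Normalized hits per absolute hit were 1.69 and 1.71 in BC scaffold clusters against 5.94 and 6.39 on numbered chromosomes. In the later libraries they were 0.325 to 1.09 against 0.472 to 1.41. In BC this was not particular to scaffolds, with 1.20 and 0.984 on chromosome Z and 1.66 and 1.69 on chromosome W. Later, Z had 0.411 to 1.32 and W 0.387 to 1.46. The difference of scaffolds from numbered chromosomes was -0.81 on the log2 scale ± 0.66 (SD, n = 8, exact permutation, p = 0.00781, adjusted p = 0.0137, lower in 8 of 8). This value falls both where a sequence has many places and where each sequence was read few times, and the cluster lists do not separate them. Median density was 8.40 and 8.53 hits per kb in BC and 16.9 to 20.1 later. Over the 8 libraries its difference from numbered chromosomes did not pass (-0.26 on the log2 scale ± 0.42, n = 8, exact permutation, p = 0.109, adjusted p = 0.137). The difference was -1.01 and -0.81 in BC1 and BC2 and between -0.211 and 0.0842 later. With clusters of at least 100 absolute hits it was -0.344 and passed (exact permutation, adjusted p = 0.0219). Density did not pass between stages (exact permutation, p = 0.114, adjusted p = 0.114). The stage values carry the lists' unequal thresholds. At the highest threshold for all libraries the difference of later libraries from BC turned from 1.12 to -0.057 on the log2 scale. At that threshold density passed between stages (exact permutation, adjusted p = 0.0333). The test compares all stages, so it does not show that later libraries differ from BC.

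In BC a single scaffold locus held a large part of the hits. The locus chr1_NT_456204v1_random:9009-18501 (galGal5, 9493 bp, on a scaffold assigned to chromosome 1) had 44777 hits in BC1 and 47228 in BC2. This was 40.8% and 45.6% of all scaffold hits in those libraries. It was mono-directional there, with 1T of 86.0% and 88.0% and 10A of 13.2% and 11.5%. Of the later libraries only E14G1 had a call, with 67.5 hits. The next in rank were chrUn_NT_465678v1:2495-13186 (4087 and 3679 hits) and chrUn_NT_464153v1:37481-47687 (1883 and 2159 hits), both called in BC alone. The 10 highest loci held 55.5% and 59.5% of scaffold hits in BC and 10.9% to 14.2% in the other libraries. On numbered chromosomes the 10 highest held 83.5% and 84.3% in BC and 27.1% to 36.6% later.

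In E7PGC the scaffold hits were spread over many loci, led by scaffolds assigned to chromosome 14. The locus chr14_NT_462351v1_random:215-35411 (35197 bp) had 206 and 200 hits in BC, 7484 and 8384 in E7PGC, 4530 and 5466 in E11G, and 2441 and 3911 in E14G. It stood highest in both E7PGC libraries and lowest in both BC libraries, with no overlap between neighbouring stages. The loci chr14_NT_462356v1_random:77-24550 and chr14_NT_462355v1_random:129-25280 had the same order of stages, with 4972 and 6296 hits in E7PGC for the former and 4912 and 5389 for the latter. Of 14 loci on chromosome 14 scaffolds, 7 were called in all 8 libraries. Over the 6 libraries after BC their log2 hits gave pairwise Pearson correlations from 0.931 to 0.999 (21 pairs, n = 6 libraries each, a description). These points share libraries, and the loci may share reads, because a read with several places is divided among them, so they are not independent loci. Together they held 733 and 727 hits in BC, 30165 and 35235 in E7PGC, 17869 and 22205 in E11G, and 9761 and 15746 in E14G, or up to 7.98% of the scaffold hits of a library. Their 10A was 55.7% to 72.7% in BC and 41.2% to 51.0% later.

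In the gonads the highest locus was chr1_NT_456108v1_random:29-34299 (34271 bp), which was not called in BC. It had 5107 and 5739 hits in E7PGC, 6370 and 5541 in E11G, and 4920 and 4071 in E14G. E7PGC and E11G overlapped, and both E14G libraries lay below them. It was mono-directional in all 6 libraries, with 1T between 62.0% and 73.8%. In E11G the third in rank was chr12_NT_462049v1_random:147-25425, with 3669 and 3232 hits. In E14G chr24_NT_463148v1_random:20914-68933 (48020 bp) ranked second with 4041 and 3273 hits, after 94.1 and 62.7 in BC, 2033 and 1377 in E7PGC and 3069 and 2400 in E11G. Its E14G libraries lay above both E11G libraries. The locus chr12_NT_462054v1_random:116-19855 had 3670 and 2886 hits in E7PGC, 829 and 388 in E11G, and 4487 and 1978 in E14G, so that E11G stood below the stages on either side of it. The longest locus, chrUn_NT_464125v1:39166-112875 (73710 bp), had 93.3 and 213 hits in BC, 2989 and 2783 in E7PGC, 1921 and 2156 in E11G, and 2963 and 2576 in E14G.

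**Figure D4:**
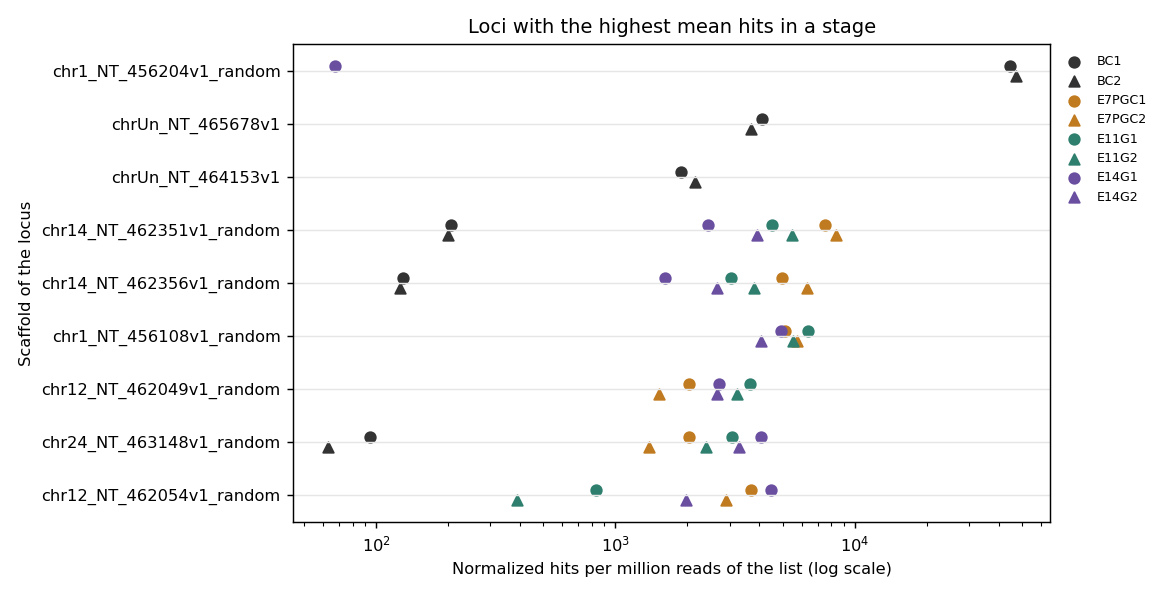
Normalized hits in RPM (log axis) of the 9 scaffold loci that ranked among the 3 highest of a stage, 1 row per locus named by its scaffold, with circles for replicate 1 and triangles for replicate 2 of each stage. A library without a point has no called cluster there. The chr14 rows show BC at 206 and 200 and at 129 and 126 hits, and the later stages between 1618 and 8384.

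Called in all 8 libraries were 109 scaffold loci (5.65%) and 41 numbered loci (3.33%). Their hits ranged widely, with a median range of 5.08 on the log2 scale between the lowest and the highest library. The mean over the stage was highest in E7PGC for 65 loci, in E11G for 35, in E14G for 9 and in BC for none. These loci had to pass thresholds of 2.21 and 2.32 hits per kb in BC but 7.95 to 13.3 in the later libraries. A locus that fell below the higher thresholds after BC could not enter, so the order of BC follows in part from this choice of loci. The steadiest was chrUn_NT_473294v1:3-5701, with 67.7 and 59.3 hits in BC, 101 and 97.3 in E7PGC, 121 and 114 in E11G, and 79.8 and 101 in E14G. The mean 1T of the 109 loci ran from 33.0% to 77.1%, with a median of 57.3%. The lowest belonged to chrUn_NT_467101v1:597-13693, whose 1T was 37.2% to 47.8% in BC and E7PGC and 19.1% to 25.2% in the gonads. It also had the lowest mean 10A, 29.0%, with 17.5% to 20.4% in the gonads. The highest 1T was that of chrUn_NT_467034v1:2-13916, with 84.9% and 91.9% in E7PGC and 57.8% to 78.7% in the gonads. The highest mean 10A, 70.3%, was that of chr23_NT_463096v1_random:267-12351, whose 1T was only 34.5% to 49.8% over the 8 libraries. Directionality was called alike in all 8 libraries for 37 of the 109 loci, of which 21 were mono-directional and 16 dual-directional.

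Loci restricted to a stage were called in both of its libraries and in no other. BC had 163, E7PGC 134, E11G 65 and E14G 25 of them, or 387 of 1930 (20.1%) against 276 of 1231 numbered loci (22.4%). Of the scaffold loci called in both libraries of a stage, these made up 40.1% (BC), 14.4% (E7PGC), 8.07% (E11G) and 4.54% (E14G). Numbered chromosomes had 212 (BC), 28 (E7PGC), 20 (E11G) and 16 (E14G) such loci, or 53.8%, 9.03%, 5.97% and 5.56%, so the scaffold share was lower in BC and higher in E7PGC, which was not tested. A call needed 2.21 or 2.32 hits per kb in BC and 7.95 to 13.3 in the later libraries. A locus of unchanged density between these thresholds thus counted as restricted to BC, in both classes. Among scaffold loci that any stage had in both of its libraries, the most frequent pattern covered E7PGC, E11G and E14G. These 351 loci (18.2%) were called in both libraries of those stages but not in both of BC, against 101 numbered loci (8.20%). Among numbered loci the most frequent was a call in both libraries of BC and of no other stage. It held for 253 numbered loci (20.6%) and 185 scaffold loci (9.59%). Another 550 scaffold loci (28.5%) and 458 numbered loci (37.2%) were called in both libraries of no stage. Without E7PGC1 the number of restricted loci was 601. The highest restricted loci were chrUn_NT_465678v1:2495-13186 for BC, given above, chrUn_NT_476487v1:12-3102 for E7PGC (334 and 404 hits), chrUn_NT_465645v1:154-17622 for E11G (308 and 240 hits) and chr8_NT_461332v1_random:106-22913 for E14G (362 and 227 hits). The E7PGC locus had both a high 1T, 77.2% and 73.8%, and a high 10A, 70.7% and 70.8%.

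Between BC and E7PGC most of the scaffold loci called in both stages had more hits in E7PGC. Loci called in all 4 libraries were tested with limma on log2(hits + 1), and p-values were adjusted (Benjamini-Hochberg) over all loci of the genome. Of 214 scaffold loci tested, 166 were higher and 16 lower in E7PGC (adjusted p under 0.05). Over all 465 loci tested, 81.3% were called, 66.7% as higher and 14.6% as lower. On numbered chromosomes 73 of 116 were higher and 20 lower. A tested locus had to pass the density threshold in every library, which was 2.21 and 2.32 hits per kb in BC and 8.71 and 7.95 in E7PGC, so a locus that fell below the higher threshold could not enter whereas one that rose from a low BC level could. Loci called in any of the 4 libraries were also entered, at 0 where not called. Of these, 848 scaffold loci were higher and 192 lower, against 1453 and 683 of all 3207 loci. For a locus called in only 1 of the stages the direction is set by that 0, so these counts add no support. Among loci called in all 4 libraries, the median log2 ratio was 1.71 for scaffold loci and 1.05 over all loci. The split depended on scaling. With TMM scaling the median over all loci moved from 1.05 to -0.10. Under it 100 scaffold loci were higher and 49 lower, against 155 and 149 of all 465 loci. The 2 largest rises were in chrUn_NT_464201v1:23871-39214 and chrUn_NT_467034v1:2-13916. The former had 20 and 27.9 hits in BC and 2200 and 4488 in E7PGC (log2 ratio 6.99 ± 0.42 SE, adjusted p = 0.000383, limma). The latter had 14 and 20.6 hits in BC and 1189 and 3182 in E7PGC (log2 ratio 6.76 ± 0.55, adjusted p = 0.000915, limma). The first carries an A-MYB match of form 1 and a Mybl1_1 match. The largest falls were in chrUn_NT_464235v1:2050-35649, from 660 and 553 hits to 47.8 and 49.5 (log2 ratio -3.61 ± 0.15, adjusted p = 0.000133, limma), and in chrUn_NT_470434v1:1897-8697, from 906 and 1187 to 109 and 94.6 (log2 ratio -3.34 ± 0.20, adjusted p = 0.000383, limma). Neither was called in the gonads. In the latter locus 10A was 5.6% and 4.6% in BC and 83.4% and 76.0% in E7PGC, the widest change in 10A among the named loci. The rises and falls of these 4 loci held under TMM scaling. The steadiest locus, chrUn_NT_473294v1:3-5701, turned with it, from 0.64 (adjusted p = 0.0131, limma) to -0.50 (adjusted p = 0.0426, limma).

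Between E7PGC and E11G the scaffold loci moved both ways. Of 587 tested, 47 were higher and 33 lower in E11G (limma, adjusted p under 0.05), where 18.3% of all 851 loci were called, 11.6% higher and 6.70% lower. Numbered loci were higher in 36 and lower in 11 of 169. The median log2 ratio was -0.06 for scaffold loci, 0.07 over all loci and 0.56 for numbered loci. The count did not hold without either E11G library, and neither did that over all loci. Such a fit takes its spread from the E7PGC pair alone, so it does not show where the count rests. Without E11G1 the median log2 ratio was -0.10 for scaffold loci, -0.04 over all loci and 0.36 for numbered loci. Without E11G2 these medians were -0.20, 0.006 and 0.55. Without E7PGC1 the median log2 ratio was -0.18 for scaffold loci, 0.05 over all loci and 0.84 for numbered loci. Under the replicate block with TMM scaling the balance turned, with 53 scaffold loci higher and 81 lower, against 109 and 110 of all 851 loci. With the replicate number as a block, 20 were higher and 12 lower (of all loci 7.76%, 5.29% higher and 2.47% lower). The 4 loci below then had an adjusted p of 0.0494 (limma). The replicate numbers mark nothing shared between these 2 stages, so the block adds no support here. The largest rises were in chr25_NT_463208v1_random:212-13964, from 64.5 and 141 hits to 501 and 635 (log2 ratio 2.55 ± 0.49, adjusted p = 0.0222, limma), and chr2_NT_458035v1_random:44-12985, from 208 and 144 to 1129 and 812 (log2 ratio 2.46 ± 0.38, adjusted p = 0.0212, limma). The largest falls were in chrUn_NT_466694v1:56-6984, from 1274 and 2735 hits to 261 and 264 (log2 ratio -2.83 ± 0.43, adjusted p = 0.0212, limma), and chrUn_NT_465013v1:10457-20655, from 1401 and 3279 to 296 and 352 (log2 ratio -2.73 ± 0.46, adjusted p = 0.0212, limma). Both falling loci had 1T over 79% and were mono-directional in E7PGC, and in E11G they were called bi- or dual-directional. All 4 had groups that do not overlap.

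From E11G to E14G most scaffold loci had fewer hits relative to all reads of the list, by a similar amount in both breeds. No locus passed the test without a block (limma, 0 of 491 scaffold loci and 0% of all 816). An unadjusted p under 0.05 (limma) was reached by 166 of the 491 scaffold loci and by 247 of all 816 loci. Without E14G2 the median log2 ratio was -0.568 for scaffold loci and -0.338 over all loci. Without E14G1 these medians were -0.368 and -0.235. In these gonads the replicate number marks breed and sequencer, and the libraries of a number deviate together. With the replicate number as a block, 55 scaffold loci were higher and 223 lower in E14G (limma, adjusted p under 0.05), against 50.6% of all loci, 16.4% higher and 34.2% lower, and 54 and 34 of 225 numbered loci. Under the block with TMM scaling the split was 76 higher and 119 lower for scaffold loci, and 207 higher and 155 lower for all 816 loci. The balance of directions thus depended on scaling. The median log2 ratio of the scaffold loci was -0.55, and -0.30 over all loci. With TMM scaling these medians were -0.302 and -0.0591. Without a block, but with TMM scaling, 14 scaffold loci were higher and 1 lower, against 35 and 1 of all 816 loci. Libraries of the 2 stages did not overlap in 75 loci that were higher and 259 that were lower, against 23.0% and 41.4% of all loci. Within each breed, the median change was -0.56 in Cobb 500 and -0.46 in Leghorn. Of the 491 loci, 351 were lower and 84 higher in both breeds, and 56 changed in opposite directions. These values by breed were computed for scaffold loci alone. No share over all loci stands beside them, so they do not set scaffold loci apart. Across these loci the changes in the 2 breeds had a Pearson correlation of 0.816, which is across loci that can share reads and is given as a description.

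**Figure D5:**
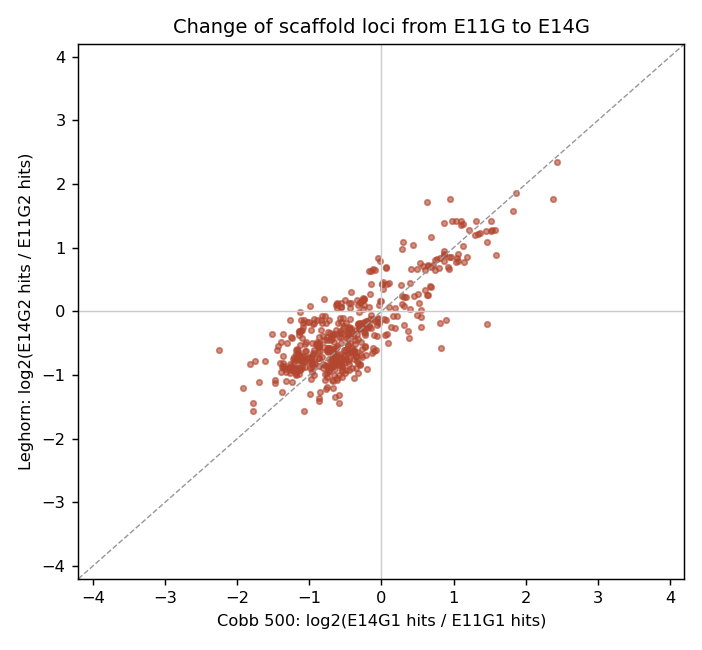
Log2 ratio of hits in E14G over E11G for each of the 491 scaffold loci called in all 4 gonad libraries, in Cobb 500 (horizontal) and in Leghorn (vertical), 1 point per locus, with a dashed line of equal change. Most points lie in the lower left, where 351 loci were lower in E14G in both breeds, and a smaller group of 84 lies in the upper right. Loci outside the scaffolds are not shown.

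The largest rises with the block were in chr12_NT_462054v1_random:116-19855, given above (log2 ratio 2.39 ± 0.53 without the block, adjusted p = 6.39e-05 with it and 0.128 without it, limma), and in chr2_NT_458015v1_random:36-14035, from 68.3 and 98.6 hits to 355 and 333 (log2 ratio 2.05 ± 0.32, adjusted p = 0.000305 with the block and 0.12 without it, limma). The largest falls were in chrUn_NT_465379v1:1391-18748, from 265 and 243 hits to 77.4 and 82.0 (log2 ratio -1.66 ± 0.28, adjusted p = 0.000753 with the block and 0.12 without it, limma), and in chrUn_NT_465499v1:1052-15921, from 243 and 193 to 70.4 and 70.8 (log2 ratio -1.60 ± 0.29, adjusted p = 0.000967 with the block and 0.12 without it, limma). In all 4 loci the E14G libraries lay outside the range of the E11G libraries. The first of the falling loci carries an A-MYB match of form 2.

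Few scaffold loci lay over expressed transcripts. The RNA-seq libraries gave FPKM values, that is fragments per kilobase of transcript scaled to library size. With a minimum of 1 FPKM in at least 1 library, 109 scaffold loci (5.65%) overlapped a transcript on either strand, against 550 numbered loci (44.7%). For any annotated or assembled transcript the shares were 28.9% and 61.1%. Over scaffold loci lay 175 such transcripts, of which only 2 could be given a symbol. ENS-3, of a gene family expressed in chicken embryonic stem cells and the early embryo, overlaps the locus chr2_NT_457946v1_random:9724-18635. It had 16.6 and 18.4 FPKM in BC, 0.0495 and 0.242 in E11G, and 0.00577 and 0.0131 in E14G, and fell from BC to E11G (log2 ratio of FPKM + 1 -4.02 ± 0.13, adjusted p = 1.38e-05, limma). DHRS4, a short-chain dehydrogenase/reductase, overlaps chrUn_NT_464130v1:51-8021 and had 4.99 to 16.9 FPKM in the 6 libraries.

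Of the 175 transcripts, 35 were higher and 73 lower in E11G than in BC (limma, adjusted p under 0.05). Of all 22368 transcripts tested, 78.3% were called, 38.0% as higher and 40.4% as lower. Between E11G and E14G, 1 was higher and 2 were lower in E14G, against 3.84% of all transcripts, 1.52% higher and 2.32% lower. The rise was in ENSGALT00000063217.1, with 0.0918 and 0.0776 FPKM in E11G and 1.02 and 1.03 in E14G (adjusted p = 0.0226, limma). One fall was in ENSGALT00000067360.1, with 29.2 and 17.5 FPKM in E11G and listed at 0 in E14G and BC. The other was in ENSGALT00000074837.1, with 6.50 and 5.84 FPKM in E11G and listed at 0 in E14G. With only the E11G and E14G libraries in the fit, 0 of 125 transcripts over scaffold loci passed, against 2 of all 20316 (limma). These calls also did not hold without either BC library. Without replicate 1 of E14G the median log2 ratio was 0 over scaffold loci and 0.000951 over all transcripts.

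Most markers measured in the RNA-seq libraries stood where their tissue is, while the haemoglobin genes differed among themselves. Among the gonad libraries, labelled male, both ovary genes were highest in replicate 1 of E11G. NANOG, a pluripotency factor, had 899 and 1001 FPKM in BC and at most 29.2 in the gonads. DAZL, a germ cell RNA-binding protein, had 48.7 to 62.7 in the gonads and 9.98 and 11.6 in BC. AMH, a Sertoli cell hormone, had 2906 to 4696 in the gonads. The haemoglobin gene HBA1, a blood marker, had 1253 to 1859 FPKM in the gonads, and HBAD had 490 to 847, whereas HBBA was listed at 0 in BC and E11G. HBZ had 4.75 and 5.71 FPKM in E11G and 0.492 and 0.669 in E14G. HBE had 5.84 and 6.18 FPKM in BC, 9.90 and 12.8 in E11G, and 3.05 and 2.18 in E14G. CYP19A1, the aromatase of ovarian cells, had 116 FPKM in replicate 1 of E11G and at most 0.0188 in every other library. FOXL2, an ovarian transcription factor, had 68.3 and 82.6 FPKM in BC, 2.45 in replicate 1 of E11G and 0.0869 to 0.554 in the other gonad libraries. Without replicate 1 of E11G, the median log2 ratio of transcripts over scaffold loci from BC to E11G was -0.413 instead of -0.268. Over all transcripts it was -0.0559 instead of -0.0302. From E11G to E14G the median was 0.0429 instead of 0.00578 over scaffold loci, and 0.0211 instead of 0.0129 over all transcripts. Of the 23 PIWI pathway genes listed, 6 could be matched by symbol, and none of these 6 lay on a scaffold. PIWIL1, a PIWI protein, had 1.80 and 1.99 FPKM in BC, 21.8 and 13.5 in E11G, and 28.0 and 26.6 in E14G. From BC to E11G it rose with ASZ1, HENMT1 and DDX4, TDRD3 fell, and TDRD7 had a log2 ratio of -0.09 with an adjusted p of 0.424 (limma).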

How the data were processed

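The members, gene lists and tests described here were chosen with earlier results of these data known. Per the study's methods, the authors trimmed the small RNA reads, mapped them to galGal5 without mismatches, removed rRNA, tRNA and miRNA reads, kept 24 to 34 nt and called clusters in each library alone with an adapted proTRAC 2.0.5 (window 5000 bp, clusters of at least 3000 bp). The deposited lists give text cells with normalized hits, a score that divides each read among its genomic places and scales it to RPM of the list, together with percent values of 1T, 10A and main-strand hits. List totals ran from 1394576 to 10786087 reads, and the lists' density thresholds rose from 2.21 to 13.3 hits per kb. The headers of the E7PGC lists name day 6 input, whereas labels and methods say day 7, which was used. The authors deposited FPKM values from TopHat2, Cufflinks 2.2.1 and Cuffnorm. Normalized values keep no counting error, so no counting interval is given.

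Loci were merged across libraries, and hits of a locus were summed within a library. Paired differences were tested by exact sign-flip permutation, and stages by exact permutation of the between-stage sum of squares, each family of 7 adjusted by Benjamini-Hochberg. Loci and transcripts were tested with limma 3.58.1 in R 4.3.3 on log2(value + 1), with a mean-variance trend and Benjamini-Hochberg adjustment over all loci (called in all libraries compared) or transcripts (at least 1 FPKM in a library). The scripts were tested on simulated data. Loci were named by rank in a stage, in the loci called in all 8 libraries, by largest change in each comparison, by length and by extreme 1T and 10A. Symbols came from RefSeq identifiers (GRCg7b), and 6992 of 7467 RefSeq rows matched. Replicate 1 and 2 of the gonads mark breed and sequencer. The correlation of same-numbered deviations from the group means was 0.617 over 816 loci for E11G and E14G, so the block was taken as real there. It was 0.153 for E7PGC and E11G and -0.0193 for BC and E7PGC, where the numbers mark nothing shared.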

Additional observations from a re-analysis of the deposited data

Results flagged for a closer look

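Some values changed in opposite directions from E11G to E14G in the 2 gonad breeds. Each breed had 1 library per stage, so these differences were not tested. The hits of chr2_NT_458035v1_random:44-12985 changed by -0.558 on the log2 scale in Cobb 500 and by 0.0734 in Leghorn. The hit-weighted 1T of scaffold clusters changed by 0.968 percentage points in Cobb 500 and by -1.29 in Leghorn. Their median length changed by 15 bp and -358 bp, and their median density by 0.107 and -0.109 on the log2 scale. The mono-directional share changed by 3.12 and -0.361 percentage points.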

How the results depend on the processing

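At the highest density threshold of any list, the scaffold share of clusters passed the exact permutation test between stages (adjusted p = 0.0333). So did 1T (adjusted p = 0.04) and density (adjusted p = 0.0333), and length did not. This test compares all stages and not later libraries against BC. Later minus BC was 33.3 percentage points for the share of clusters and -17.5 for 1T. It was 2816 bp for length, and for density it turned to -0.057. The 10A difference of scaffolds from numbered chromosomes turned to -0.0886. With at least 100 absolute hits the density difference passed (-0.344, adjusted p = 0.0219) and length by stage was 616 bp. Without the highest clusters the 1T difference was -1.34 and the 10A difference 4.57. On chrUn scaffolds the 10A difference was 5.70. As medians over clusters the 1T difference was -0.869 and the 10A difference 2.97. With Leghorn libraries only no test could pass, and the differences were 962 bp in length, -1.21 in 10A, -1.21 in log2 hits per place, -17.9 in mono-directional and -5.37 in main-strand percentage points, and by stage 31.5 in hits, 18.3 in 10A and 2389 bp.

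Leaving out each library in turn kept all paired differences on their side of the threshold: 1T 2.08 to 3.93, 10A 0.259 to 1.46, length 1069 to 1367 bp, density -0.312 to -0.157, hits per place -0.885 to -0.651, mono-directional -22.9 to -18.7, main strand -5.57 to -4.79. By stage, hits ran from 31.9 to 36.9, 10A from 20 to 22.2 and length from 2044 to 2367 bp, and each lost its call without any 1 gonad library (length also without E7PGC2), while clusters ran from 17.5 to 19.8, 1T from -16.3 to -13.2, density from 1.09 to 1.14 and mono-directional share from -21.0 to -16.1. Scaffold loci numbered 1729 to 1912 and restricted loci 410 to 601 (an alternative chosen after seeing the data), or 862 when called in any library of a stage. The leave-out call counts given next come from fits with 1 library left in a group. No counts over all loci or transcripts stand beside them, so they do not set scaffold loci apart. Such fits gave median log2 ratios of 1.58 to 1.94 for scaffold loci and 0.961 to 1.26 over all loci (E7PGC against BC). For E11G against E7PGC these were -0.201 to -0.104 and -0.0416 to 0.0712. For E14G against E11G they were -0.568 to -0.368 and -0.338 to -0.235. Called scaffold loci numbered 175 to 185 for E7PGC against BC, 0 to 190 for E11G against E7PGC and 0 to 72 for E14G against E11G. Called transcripts numbered 75 to 119 for E11G against BC and 0 to 28 for E14G against E11G, and 0 with the 2 gonad groups alone.

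With loci called in any library entered at 0, called scaffold loci were 1040, 488 and 178 in the 3 comparisons, against 2136, 1052 and 311 of all loci. For a locus called in only 1 of the stages compared, that 0 sets the direction, so these counts add no support. With at least 100 absolute hits, called scaffold loci were 99 for E7PGC against BC, and 228 of all 282 loci tested. The replicate block gave 32 for E11G against E7PGC (278 for E14G against E11G), and block with TMM, chosen after seeing the data, 134 and 195. Over all loci the block gave 66 and 413, and block with TMM 219 and 362. TMM alone gave 15 for E14G against E11G, and 36 over all loci. The block changed no other count of calls by over 1.5 times. The share of scaffold loci over transcripts was 12.1% at 0.1 FPKM and 2.54% at 5 FPKM. Of the named loci and transcripts, 630 alternative values kept direction and call, 44 gained a call, 35 lost it and 5 turned: chrUn_NT_473294v1:3-5701 to -0.50 under median centring, TMM, and TMM with block (E7PGC against BC), and chr2_NT_458035v1_random:44-12985 to 0.00 under TMM, with and without block (E14G against E11G). The causes were not tested. Loci under a list's threshold have no value, so a missing call limits the level only to that threshold.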
